A study of Mus musculus with 12 samples.

Results

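The 42 mitosis genes described here were chosen by symbol, as genes with well-known roles in mitotic entry, chromosome segregation and cytokinesis, and all 42 were found among the 50559 gene rows of the count files. Earlier results of these data were known when the 42 genes were chosen, so the shares of all genes given beside them are descriptive. Dividing cells make most of these transcripts in late S phase, G2 and M phase, and in resting cells the DREAM complex of MuvB, E2F4 and p130 (encoded by Rbl2) keeps many of them silent. B-Myb and then FOXM1 join MuvB at the same promoters as cells approach division and drive their transcription. In white fat, mature adipocytes are largely post-mitotic, and the dividing cells described in expanding fat include adipocyte progenitors, macrophages and endothelial cells.

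FVB/N mice in 4 groups gave visceral white fat for RNA, and each group has 3 libraries. The mice called wild type carried αMHC tTA alone, a transcriptional activator driven by a promoter of cardiac muscle, and transgenic mice carried αMHC tTA together with αMHC TGFb, so the driver was common to all 4 groups and TGF-b1 was overexpressed in the heart and not by design in fat. Each genotype received chow as control diet with 17% kcal fat (3.1 kcal/g) or food with 60% kcal fat (5.21 kcal/g), called high-fat diet. High-fat feeding was given to mice of 8 to 10 weeks for 2 or 6 weeks, and the labels do not say which duration a library had. Whether the libraries are separate mice is not stated either, so a p-value reflects variation among libraries that could be technical. The design asks what the diet does to the tissue and whether the cardiac transgene alters it.

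Libraries held 20.1 to 21.3 M gene counts, and all 42 genes passed the filter on low counts that left 16550 genes for testing. Levels are given as CPM, a gene's count scaled to the total of the library's gene counts. Summed over 9 adipocyte markers (Adipoq, Plin1 and others), the libraries held 34572 to 43714 CPM. Transcripts of other tissues stood out in 5 libraries. The summed level of 8 epithelial markers was 94.4 CPM in wild-type control replicate 1 and 378 CPM in transgenic control replicate 2, that of 10 muscle markers was 507 CPM in wild-type high-fat replicate 3 and 756 CPM in transgenic control replicate 3, that of 8 liver markers was 343 CPM in wild-type high-fat replicate 2, and that of 6 Schwann cell markers was 213 CPM in wild-type control replicate 1. Results are therefore also given without these libraries. The mitosis genes themselves were scarce, with 1343 to 4477 counts for the 42 genes together in a library.

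Promoters of these genes are known for 2 short elements, so their sequences are shown first. The cell cycle homology region (CHR; searched here as TTTGAA or TTCGAA on both strands) is the element that MuvB binds, and the CCAAT box (searched as CCAAT on both strands) is bound by the activator NF-Y. RefSeq promoters of build GRCm38.p6, from 250 bases before to 50 after the annotated start, were matched by symbol for 35 of the 42 genes, as 37 promoters. Incenp, Spc24, Tpx2, Kif20a, Foxm1, Aurkb and Ccna2 had none in the table. The lines below run 5′ to 3′ along the gene from 120 bases before the RefSeq start to base 30 from it, 150 bases each, with complete matches of either element in capitals. A CCAAT match on the other strand reads ATTGG, and a TTTGAA match reads TTCAAA. Cyclin B2 (Ccnb2), Bub1, Cenpa and Racgap1 have CCAAT boxes upstream and a CHR at the start, and the diet raised all of them. Mki67 was raised and carries its CHR matches further upstream. Cdk1 and Anln have CHR matches and were not called, and Nusap1 was raised and has no match.
Ccnb2: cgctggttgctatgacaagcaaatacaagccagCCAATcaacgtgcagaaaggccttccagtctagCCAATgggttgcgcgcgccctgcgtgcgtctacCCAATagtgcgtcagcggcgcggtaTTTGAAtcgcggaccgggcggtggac
Bub1: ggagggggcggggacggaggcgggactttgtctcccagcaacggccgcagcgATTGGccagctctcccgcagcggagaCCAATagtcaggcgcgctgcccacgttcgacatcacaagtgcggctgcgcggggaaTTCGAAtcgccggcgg
Cenpa: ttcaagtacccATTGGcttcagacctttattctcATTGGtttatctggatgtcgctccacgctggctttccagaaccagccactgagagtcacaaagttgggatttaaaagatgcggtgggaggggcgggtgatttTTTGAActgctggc
Racgap1: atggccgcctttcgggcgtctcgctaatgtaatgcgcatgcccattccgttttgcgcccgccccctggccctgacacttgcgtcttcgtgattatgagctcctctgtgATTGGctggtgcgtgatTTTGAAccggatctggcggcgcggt
Mki67: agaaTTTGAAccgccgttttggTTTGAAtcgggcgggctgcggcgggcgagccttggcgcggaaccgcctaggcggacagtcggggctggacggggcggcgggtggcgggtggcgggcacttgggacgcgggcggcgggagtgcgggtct
Cdk1: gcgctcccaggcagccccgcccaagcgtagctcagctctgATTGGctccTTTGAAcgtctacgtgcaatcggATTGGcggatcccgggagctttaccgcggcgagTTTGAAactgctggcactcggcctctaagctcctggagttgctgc
Anln: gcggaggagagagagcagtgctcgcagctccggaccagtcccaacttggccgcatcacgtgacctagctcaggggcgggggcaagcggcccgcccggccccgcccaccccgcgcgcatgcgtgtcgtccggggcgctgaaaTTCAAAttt
Nusap1: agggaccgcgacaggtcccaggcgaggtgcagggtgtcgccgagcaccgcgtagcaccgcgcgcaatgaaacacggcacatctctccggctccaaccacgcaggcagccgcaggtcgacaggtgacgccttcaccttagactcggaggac

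These stretches lie at chr9:70421525-70421674 (minus strand) for Ccnb2, chr2:127831830-127831979 (minus strand) for Bub1, chr5:30666766-30666915 (plus strand) for Cenpa and chr15:99651627-99651776 (minus strand) for Racgap1. The others lie at chr7:135716350-135716499 (minus strand) for Mki67, chr10:69352883-69353032 (minus strand) for Cdk1, chr9:22389177-22389326 (minus strand) for Anln and chr2:119618178-119618327 (plus strand) for Nusap1.

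A CHR match was present in 29 of the 37 mitosis promoters (78.4%), against 19.2% of all 32851 promoters of 300 bases in the table. Restricted to matches that begin within 50 bases of the start, the shares were 73.0% and 5.31%. A CCAAT match was present in 75.7% against 37.4%, at least 2 of them in 54.1% against 11.7%, and both elements together in 67.6% against 7.52%. Of the 40 CHR matches in mitosis promoters, 28 began within 50 bases of the start, with a median first base at +3, while the 63 CCAAT matches had a median first base at -58. The promoters listed for Ect2 overlap each other, as do those for Prc1, so shared matches count in each. Among the mitosis genes not called over both genotypes 9 of 11 promoters held a CHR match (81.8%), and among those raised 20 of 26 did (76.9%). Among other lists, it was found in 65.2% of 46 promoters of further mitosis genes, 17.1% of 35 promoters of DNA replication genes and 11.8% of 17 promoters of anaphase-promoting complex subunits. A match describes the letters of the window and is not evidence of binding.

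**Figure D1:**
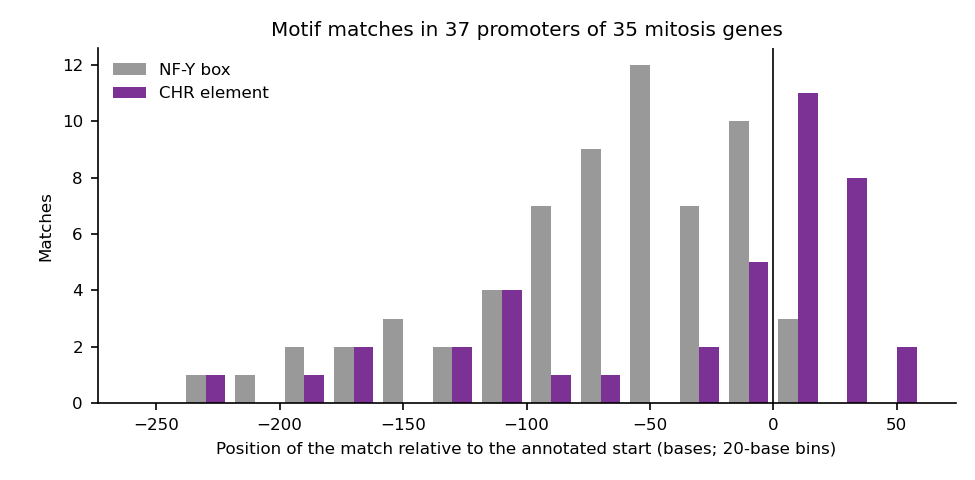
Number of matches by position relative to the annotated start (bases, in bins of 20) in 37 promoters of 35 mitosis genes, for the CHR element (purple, 40 matches) and the NF-Y box (grey, 63 matches). CHR matches gather around the start, where 28 of 40 begin within 50 bases. Most NF-Y boxes lie upstream of it, and 24 of 63 begin within 50 bases.

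High-fat diet went with higher levels of the mitosis genes in both genotypes. Summed over the 42 genes, wild-type libraries held 64.2, 84.1 and 100.1 CPM on control diet and 144.5, 136 and 143 CPM on high-fat diet, and transgenic libraries held 83.3, 91.2 and 70.3 CPM on control diet and 197, 210 and 128 CPM on high-fat diet (values are in the order of replicates 1, 2 and 3 here and below). Every high-fat library lay above every control library. The ratio of the group means was 1.71 in wild type and 2.19 in transgenic tissue, and it was 2.50 in transgenic tissue without high-fat replicate 3, the lowest of its group. That library was the lowest of the 3 transgenic high-fat libraries in 40 of the 42 genes. In bulk tissue, a larger share of dividing cells and more of these transcripts per dividing cell cannot be told apart.

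Over both genotypes, 30 of the 42 genes were raised by edgeR's quasi-likelihood test at an adjusted p below 0.05 and none was lowered. The background is 9.43% of all 16550 genes raised and 7.98% lowered. The median difference of the 42 was 1.13 on the log2 scale, a 2.2-fold higher level on high-fat diet, against a median of -0.02 over all genes tested. All 42 differences were positive, where 47.2% of all genes tested had a positive one. For 17 of the 42, no control library reached any of the 6 high-fat libraries, and 4.18% of all genes did the same.

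Within wild type, 2 of the 42 genes were raised, Bub1 and Mki67, where 0.683% of all genes were raised and 0.453% lowered. The median difference was 0.71 (1.64-fold), all 42 were positive (47.9% of all genes), and 19 had an unadjusted p below 0.05 (18.1% of all genes, in either direction). For 26 genes the 3 high-fat libraries all lay above the 3 control libraries, against 16.8% of all genes. Within transgenic tissue, 21 of the 42 were raised and none lowered, against 5.39% and 3.34% of all genes. There the median was 1.53 (2.88-fold), 35 had an unadjusted p below 0.05 (25.8% of all genes, in either direction), and 32 had libraries that did not overlap, against 12.6% of all genes. Across the 42 genes the differences of wild type and transgenic tissue, which share no library, had a Pearson r of 0.55 and a Spearman rho of 0.61 (n = 42 genes, which are measured in the same libraries and are not independent). A difference above 2-fold was seen for 13 genes in wild type and 30 in transgenic tissue.

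**Figure D2:**
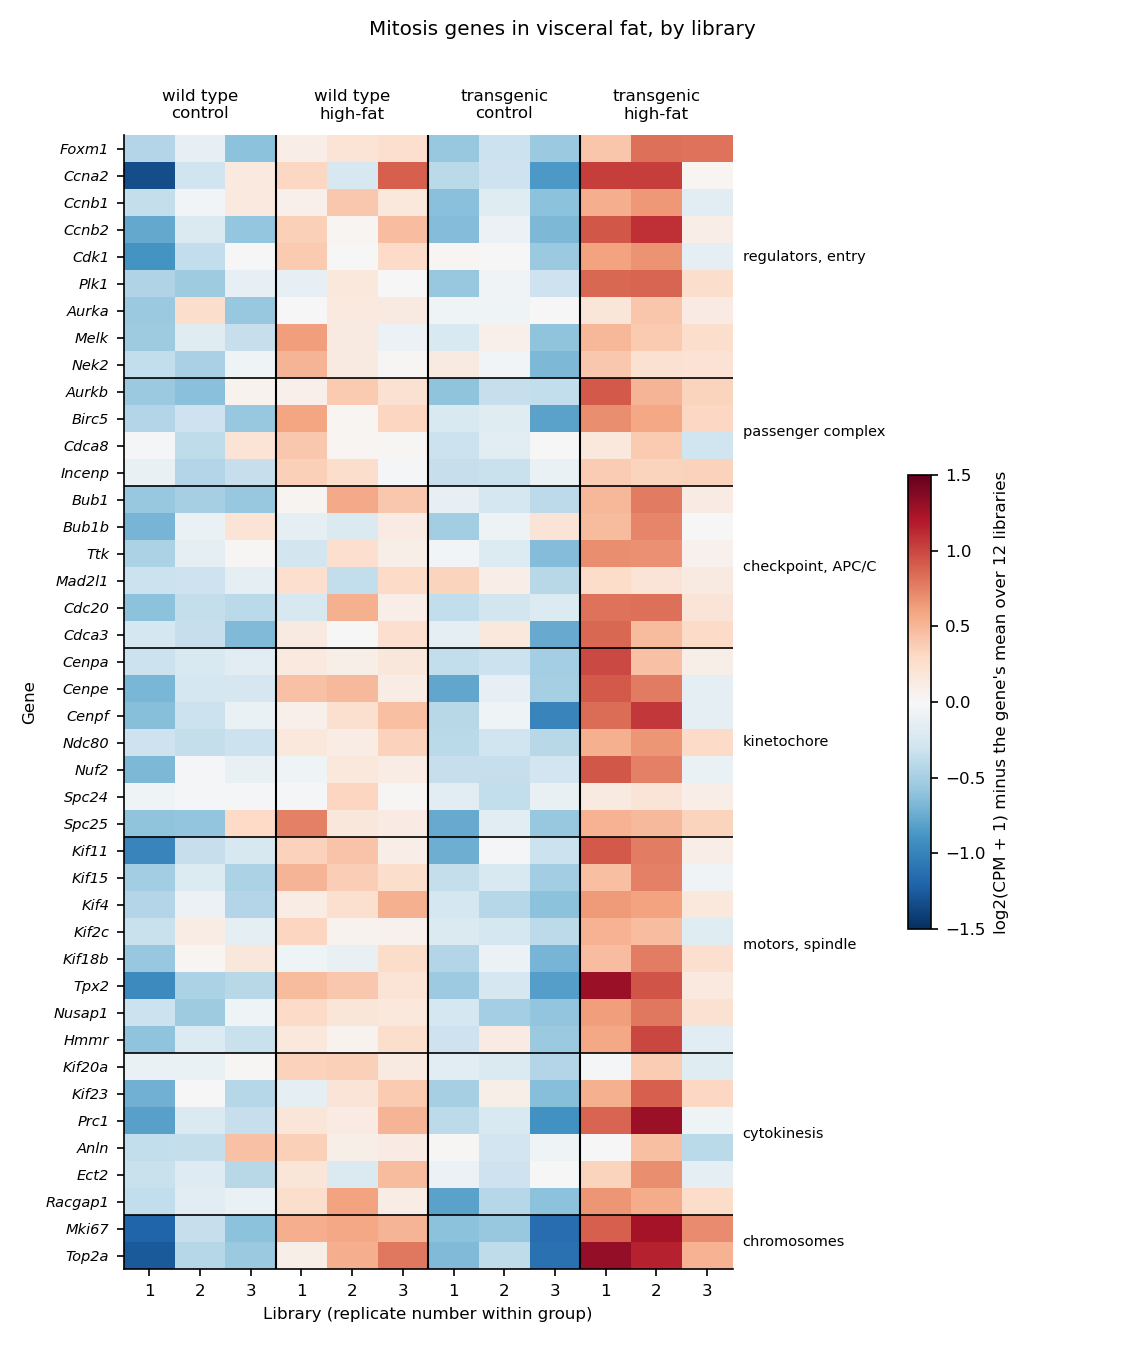
Level of each of the 42 mitosis genes (rows, grouped by role) in each of the 12 libraries (columns, replicates 1 to 3 of each group), as log2(CPM + 1) minus the gene's mean over the 12 libraries. Red marks levels above the gene's mean. High-fat columns are mostly red in both genotypes, most strongly in transgenic replicates 1 and 2, and transgenic high-fat replicate 3 is the lowest of its group in 40 of 42 rows.

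Among the 9 regulators of mitotic entry, 6 were raised over both genotypes (Foxm1, Ccna2, Ccnb1, Ccnb2, Plk1 and Melk), 4 in transgenic tissue and none in wild type. Foxm1, the transcription factor that turns on much of this set, stood at 2.15, 2.94 and 1.8 CPM on control and 3.6, 3.95 and 4.1 CPM on high-fat diet in wild type, and 1.88, 2.44 and 1.92 CPM on control and 4.71, 6.61 and 6.51 CPM on high-fat diet in transgenic tissue. No control library reached a high-fat library, and the transgenic high-fat libraries were the 3 highest of all 12. Its difference was 1.53, SE 0.25, adjusted p = 0.00452 in transgenic tissue and 0.68, SE 0.24, adjusted p = 0.177 in wild type. Ccnb2, a B-type cyclin that activates CDK1, stood at 0.335, 0.964 and 0.522 CPM on control and 1.92, 1.32 and 2.15 CPM on high-fat diet in wild type, and 0.445, 1.14 and 0.422 CPM on control and 3.33, 3.84 and 1.45 CPM on high-fat diet in transgenic tissue. Again no library of the diets overlapped, and the difference was 1.79, SE 0.37, adjusted p = 0.00708 over both genotypes. Ccnb1, the other main B-type cyclin, stood at 0.813, 1.25 and 1.57 CPM on control and 1.44, 2.07 and 1.57 CPM on high-fat diet in wild type, and 0.494, 1.04 and 0.516 CPM on control and 2.38, 2.62 and 1.06 CPM on high-fat diet in transgenic tissue. Only the transgenic libraries separated by diet (1.57, SE 0.42, adjusted p = 0.039), and in wild type control replicate 3 and high-fat replicate 3 were level. About 30.6% of the exon bases of Ccnb1 have near-identical copies in pseudogenes such as Ccnb1-ps, so its level is uncertain.

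Plk1, a kinase that acts from entry to cytokinesis, stood at 0.670, 0.579 and 1.09 CPM on control and 1.1, 1.55 and 1.29 CPM on high-fat diet in wild type, and 0.543, 1.19 and 0.844 CPM on control and 3.14, 3.19 and 1.74 CPM on high-fat diet in transgenic tissue. It was raised in transgenic tissue (1.65, SE 0.36, adjusted p = 0.0179), where replicates 1 and 2 were the highest of all libraries. Cdk1, the kinase at the centre of mitotic entry, stood at 2.87, 4.58 and 6.22 CPM on control and 8.5, 6.16 and 7.82 CPM on high-fat diet in wild type, and 6.37, 6.17 and 3.89 CPM on control and 9.93, 10.5 and 5.59 CPM on high-fat diet in transgenic tissue. Transgenic high-fat replicate 3 lay within the control range, and Cdk1 was not called over both genotypes (0.67, SE 0.22, adjusted p = 0.0561). Of the others, Ccna2 (cyclin A2) averaged 1.78 ± 0.536 CPM on control and 5.75 ± 2.35 CPM on high-fat diet in transgenic tissue (SD, n = 3 each) and was called over both genotypes only (1.34, SE 0.39, adjusted p = 0.0341). Exons of Ccna2 overlap Exosc9 on the other strand over 12.5% of their bases, so its level is uncertain. Melk, a kinase abundant in proliferating cells, was near the detection limit, with 1, 7 and 4 counts in wild-type control libraries and 6, 12 and 0 in transgenic control libraries. High-fat libraries held 28, 14 and 9 counts in wild type and 24, 21 and 17 in transgenic tissue, a summed ratio of 4.23 in wild type (95% exact counting interval 2.22 to 8.71) and 3.37 in transgenic tissue (1.97 to 6.05). Aurka and Nek2, kinases of the centrosome, had differences of 0.47 and 0.70 over both genotypes and were not called (adjusted p = 0.238 and 0.0689).

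In the chromosomal passenger complex, which corrects faulty attachments of chromosomes to the spindle, the kinase Aurkb and its partners Birc5 (survivin) and Incenp were raised over both genotypes and in transgenic tissue, and Cdca8 (borealin) was not called. Aurkb stood at 1.15, 1.06 and 2.28 CPM on control and 2.35, 3.15 and 2.72 CPM on high-fat diet in wild type, and 1.09, 1.49 and 1.45 CPM on control and 4.99, 3.51 and 2.99 CPM on high-fat diet in transgenic tissue. Its transgenic difference was 1.53, SE 0.31, adjusted p = 0.0124. Birc5 stood at 0.717, 0.868 and 0.570 CPM on control and 2.5, 1.36 and 1.91 CPM on high-fat diet in wild type, and 0.988, 1.04 and 0.328 CPM on control and 2.76, 2.48 and 1.88 CPM on high-fat diet in transgenic tissue. Its difference over both genotypes was 1.47, SE 0.29, adjusted p = 0.0062, and no library overlapped between the diets. Incenp, the scaffold of the complex, stood at 5.26, 4.0 and 4.32 CPM on control and 7.68, 7.15 and 5.68 CPM on high-fat diet in wild type, and 4.35, 4.38 and 5.3 CPM on control and 7.84, 7.55 and 7.62 CPM on high-fat diet in transgenic tissue. Its rise was small, 0.63, SE 0.12, adjusted p = 0.00447 over both genotypes. The SD among the 3 transgenic high-fat libraries was 0.155 CPM, below counting error for their 165, 161 and 158 counts. Cdca8 averaged 2.87 ± 0.769 and 3.49 ± 0.717 CPM in wild type and 2.6 ± 0.390 and 3.33 ± 1.01 CPM in transgenic tissue on control and high-fat diet (SD, n = 3 each), with overlapping libraries.

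Of 6 genes grouped under the spindle assembly checkpoint and the anaphase-promoting complex (APC/C), the last of them Cdca3, a trigger of mitotic entry that the APC/C degrades, Bub1, Cdc20 and Cdca3 were raised over both genotypes, Bub1 and Cdc20 in transgenic tissue and Bub1 in wild type. Bub1, a checkpoint kinase at the kinetochore, was nearly absent from wild-type control libraries, with 2, 3 and 2 counts, and held 14, 30 and 24 counts on high-fat diet. Transgenic libraries held 10, 7 and 5 counts on control and 27, 38 and 16 on high-fat diet. In CPM the wild-type values were 0.0957, 0.145 and 0.0949 against 0.672, 1.41 and 1.14, and the transgenic values 0.494, 0.348 and 0.234 against 1.28, 1.78 and 0.772. The fitted difference was 3.12, SE 0.51, adjusted p = 0.0244 in wild type and 1.84, SE 0.43, adjusted p = 0.0234 in transgenic tissue. With only 7 counts in the wild-type control group, the summed ratio was 9.66 with an exact counting interval of 4.44 to 24.9, against 3.60 (2.22 to 6.05) in transgenic tissue. The larger wild-type value was not shown to differ from the transgenic one (interaction -1.28, SE 0.68, adjusted p = 0.864).

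Cdc20, which switches on the APC/C at anaphase, stood at 0.813, 1.16 and 1.09 CPM on control and 1.34, 3.01 and 1.96 CPM on high-fat diet in wild type, and 1.14, 1.29 and 1.41 CPM on control and 3.85, 3.89 and 2.17 CPM on high-fat diet in transgenic tissue. It was raised over both genotypes (1.17, SE 0.23, adjusted p = 0.00582), and in each genotype the high-fat libraries lay above the control libraries. A pseudogene copy, Gm7856, matches 24.4% of its exon bases. Cdca3 had a difference of 0.83, SE 0.23, adjusted p = 0.0306 over both genotypes. Bub1b (BubR1), Ttk (the checkpoint kinase Mps1) and Mad2l1 (Mad2), which together hold back the APC/C, were not called. Their differences over both genotypes were 0.46, 1.09 and 0.28 (adjusted p = 0.321, 0.0758 and 0.319). Mad2l1 averaged 5.12 ± 1.54 CPM on control and 5.86 ± 0.343 CPM on high-fat diet in transgenic tissue (SD, n = 3 each).

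At the centromere and outer kinetochore, where microtubules attach, 6 of 7 genes were raised over both genotypes and 4 in transgenic tissue (Cenpa, Cenpe, Ndc80 and Nuf2). Ndc80, which binds the microtubule directly, was low, at 10, 9 and 10 counts on control and 22, 21 and 28 on high-fat diet in wild type. Transgenic libraries held 8, 10 and 8 counts on control and 35, 41 and 26 on high-fat diet. In CPM the wild-type values were 0.478, 0.434 and 0.475 against 1.06, 0.988 and 1.34, and the transgenic values 0.395, 0.497 and 0.375 against 1.66, 1.92 and 1.25. No control library reached a high-fat library, and the difference was 1.57, SE 0.21, adjusted p = 0.000894 over both genotypes. In wild type alone it was 1.20, SE 0.30, adjusted p = 0.0728. Nuf2, its partner, rose in transgenic tissue (1.85, SE 0.51, adjusted p = 0.0429), although replicate 3 with 0.772 CPM was close to the control libraries. Cenpa, the histone H3 variant that marks centromeres, stood at 2.58, 2.84 and 2.99 CPM on control and 3.98, 3.76 and 4.05 CPM on high-fat diet in wild type, and 2.47, 2.59 and 2.16 CPM on control and 7.89, 5.11 and 3.76 CPM on high-fat diet in transgenic tissue. Its transgenic difference was 1.23, SE 0.25, adjusted p = 0.0124. Cenpe, a kinetochore motor, Cenpf and Spc25 were called over both genotypes (1.30, 1.41 and 0.99, adjusted p = 0.0101, 0.0289 and 0.02). Spc24, which pairs with Spc25 in the Ndc80 complex, was not (0.58, SE 0.22, adjusted p = 0.088), so the 4 subunits of that complex did not all pass.

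Of 8 spindle motors and microtubule binders, 7 were raised over both genotypes, 4 in transgenic tissue (Kif15, Kif4, Tpx2 and Nusap1) and none in wild type. Tpx2, which activates Aurora A on the spindle, stood at 0.861, 1.59 and 1.71 CPM on control and 4.03, 3.76 and 3.15 CPM on high-fat diet in wild type, and 1.48, 2.04 and 1.03 CPM on control and 7.84, 5.95 and 2.99 CPM on high-fat diet in transgenic tissue. Its difference was 1.60, SE 0.27, adjusted p = 0.00266 over both genotypes, with no overlap between the diets. Nusap1, which bundles spindle microtubules, stood at 1.67, 1.3 and 2.18 CPM on control and 3.07, 2.78 and 2.72 CPM on high-fat diet in wild type, and 1.78, 1.34 and 1.22 CPM on control and 4.14, 4.78 and 2.89 CPM on high-fat diet in transgenic tissue. The diets did not overlap for it either (1.06, SE 0.18, adjusted p = 0.00316). Kif4, a chromokinesin, had the largest transgenic difference of the 42 genes (2.45, SE 0.52, adjusted p = 0.0161), from 15 counts summed over the 3 control libraries to 85 on high-fat diet. That ratio was 5.54 with an exact counting interval of 3.18 to 10.3, and 15.1% of the exon bases of Kif4 overlap a gene on the other strand (Pdzd11). Kif11, the motor that separates spindle poles, and Kif15, which can share that work, had differences of 1.23 and 1.59 over both genotypes (adjusted p = 0.0117 and 0.0042). Kif2c, a microtubule depolymerase, and Hmmr were called over both genotypes with 1.04 and 1.20 (adjusted p = 0.0477 and 0.0391). Kif18b was not called (1.25, SE 0.48, adjusted p = 0.0897), with single transgenic control libraries as low as 0.0469 CPM.

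Of the 6 genes of the central spindle and cytokinesis, Racgap1, Prc1 and Kif23 were raised over both genotypes and Racgap1 and Prc1 in transgenic tissue. Racgap1, a subunit of centralspindlin with Kif23, stood at 3.4, 4.05 and 4.32 CPM on control and 5.86, 7.62 and 5.15 CPM on high-fat diet in wild type, and 2.27, 3.23 and 2.72 CPM on control and 8.03, 7.36 and 5.88 CPM on high-fat diet in transgenic tissue. The diets did not overlap (0.99, SE 0.15, adjusted p = 0.00142), and the transgenic difference was 1.39, SE 0.21, adjusted p = 0.0034. Prc1, which crosslinks the antiparallel microtubules of the midzone, stood at 0.957, 1.98 and 1.71 CPM on control and 2.93, 2.78 and 3.91 CPM on high-fat diet in wild type, and 1.63, 1.94 and 0.844 CPM on control and 5.32, 7.4 and 2.31 CPM on high-fat diet in transgenic tissue. Its difference over both genotypes was 1.38, SE 0.31, adjusted p = 0.0112, with 11.1% of its exon bases shared with a gene on the other strand (Rccd1). Kif23 had 0.98, SE 0.27, adjusted p = 0.0291. Ect2, the exchange factor that activates RhoA for the contractile ring, and Kif20a were not called (0.76 and 0.80, adjusted p = 0.0613 and 0.0631). Kif20a shares 29.3% of its exon bases with Cdc23 on the other strand, so its level is uncertain.

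Anln, the actin-binding scaffold anillin, was the most abundant gene of the set and had the smallest difference over both genotypes. Its level was 13.5, 13.6 and 24.4 CPM on control and 22.9, 19 and 19.4 CPM on high-fat diet in wild type, and 18, 14.3 and 16.9 CPM on control and 17.8, 24.6 and 13.2 CPM on high-fat diet in transgenic tissue. Control and high-fat libraries overlapped in both genotypes, and the difference was 0.19, SE 0.17, adjusted p = 0.453 over both genotypes. Per kilobase of exon it stood at 2.00 CPM per kb as a mean of the 12 libraries, ahead of Incenp with 1.37 and Cdk1 with 1.33. The lowest was Kif15 with 0.0974 CPM per kb. Anln alone made up 20.7% of the summed CPM of the 42 genes in wild-type control libraries and 14.5% in wild-type high-fat libraries, and 20.1% and 10.4% in transgenic tissue. Over the 42 genes, the mean level per kb and the diet difference had a Spearman rho of -0.33 (n = 42 genes measured in the same libraries). The 5 genes with a log2 difference below 0.5 over both genotypes were Anln, Mad2l1, Cdca8, Bub1b and Aurka.

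The genes of mitotic chromosome structure were both raised over both genotypes and in transgenic tissue. Mki67, which coats mitotic chromosomes and encodes the proliferation marker Ki-67, stood at 2.77, 5.88 and 4.7 CPM on control and 11.7, 12 and 11.4 CPM on high-fat diet in wild type, and 4.69, 4.88 and 2.95 CPM on control and 15.2, 19.7 and 13.3 CPM on high-fat diet in transgenic tissue. The 3 wild-type high-fat libraries (243, 255 and 239 counts) had an SD of 0.300 CPM, below counting error, and no control library exceeded 5.88 CPM. Its difference was 1.31, SE 0.27, adjusted p = 0.043 in wild type, 1.96, SE 0.28, adjusted p = 0.00275 in transgenic tissue and 1.64, SE 0.19, adjusted p = 0.000488 over both. Top2a, the topoisomerase that untangles sister chromatids, stood at 1.67, 3.76 and 3.37 CPM on control and 5.86, 8.38 and 10.1 CPM on high-fat diet in wild type, and 3.06, 3.93 and 1.97 CPM on control and 15, 13.3 and 8.2 CPM on high-fat diet in transgenic tissue. In wild type it did not pass (1.39, SE 0.35, adjusted p = 0.0767), although its high-fat libraries all lay above the controls, and in transgenic tissue it did (2.03, SE 0.36, adjusted p = 0.00666).

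**Figure D3:**
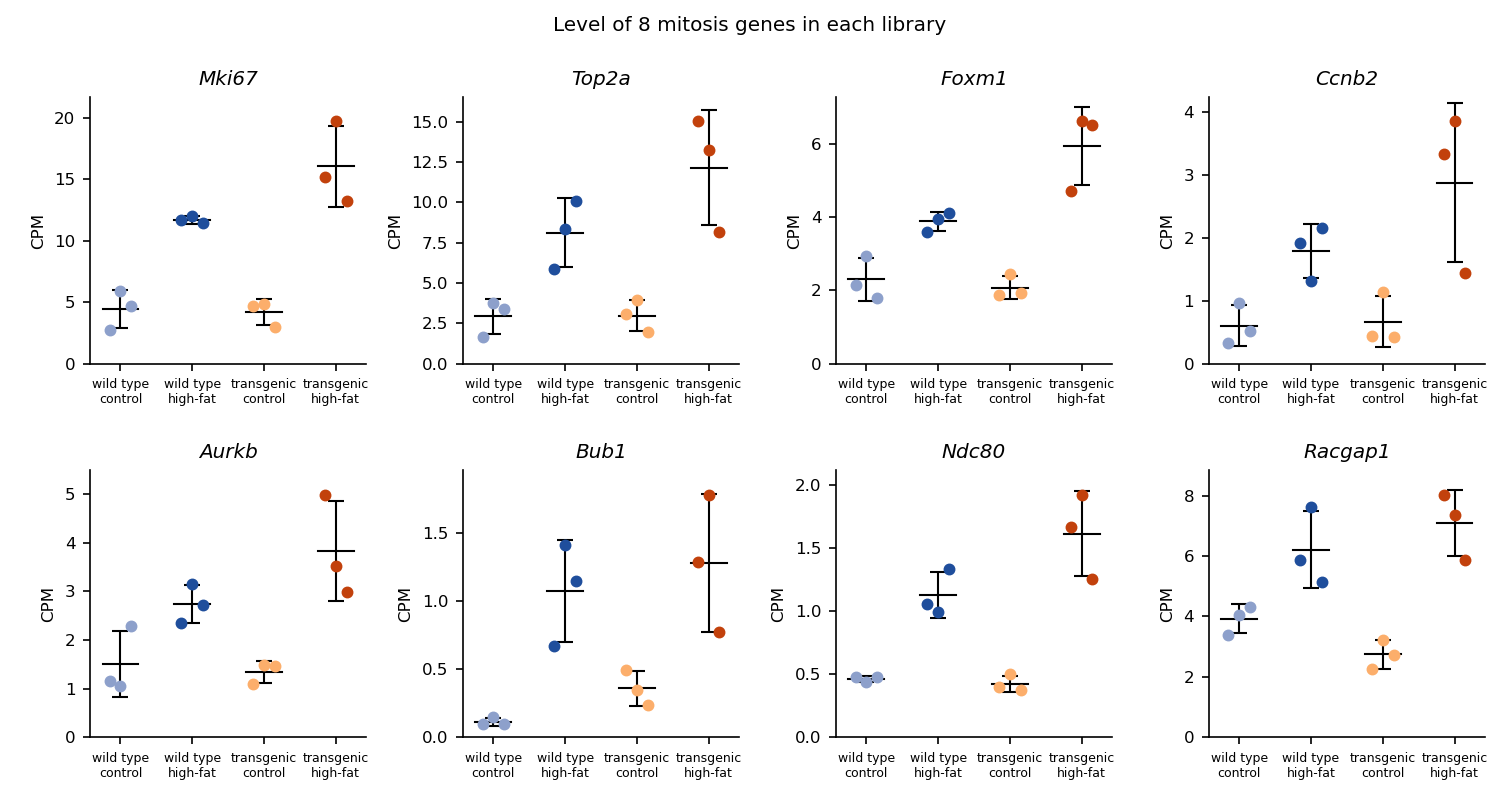
CPM of 8 mitosis genes in each library (points), with the group mean (line) and SD (bars, n = 3). High-fat libraries lie above control libraries for each gene in both genotypes. All 8 are among the 17 of 42 genes without overlap between the diets, and Cdk1, Ccnb1 and Plk1, which overlap, are not shown. Bub1 stands at 0.0949 to 0.145 CPM in wild-type control libraries and at 0.234 to 0.494 CPM in transgenic control libraries.

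**Figure D4:**
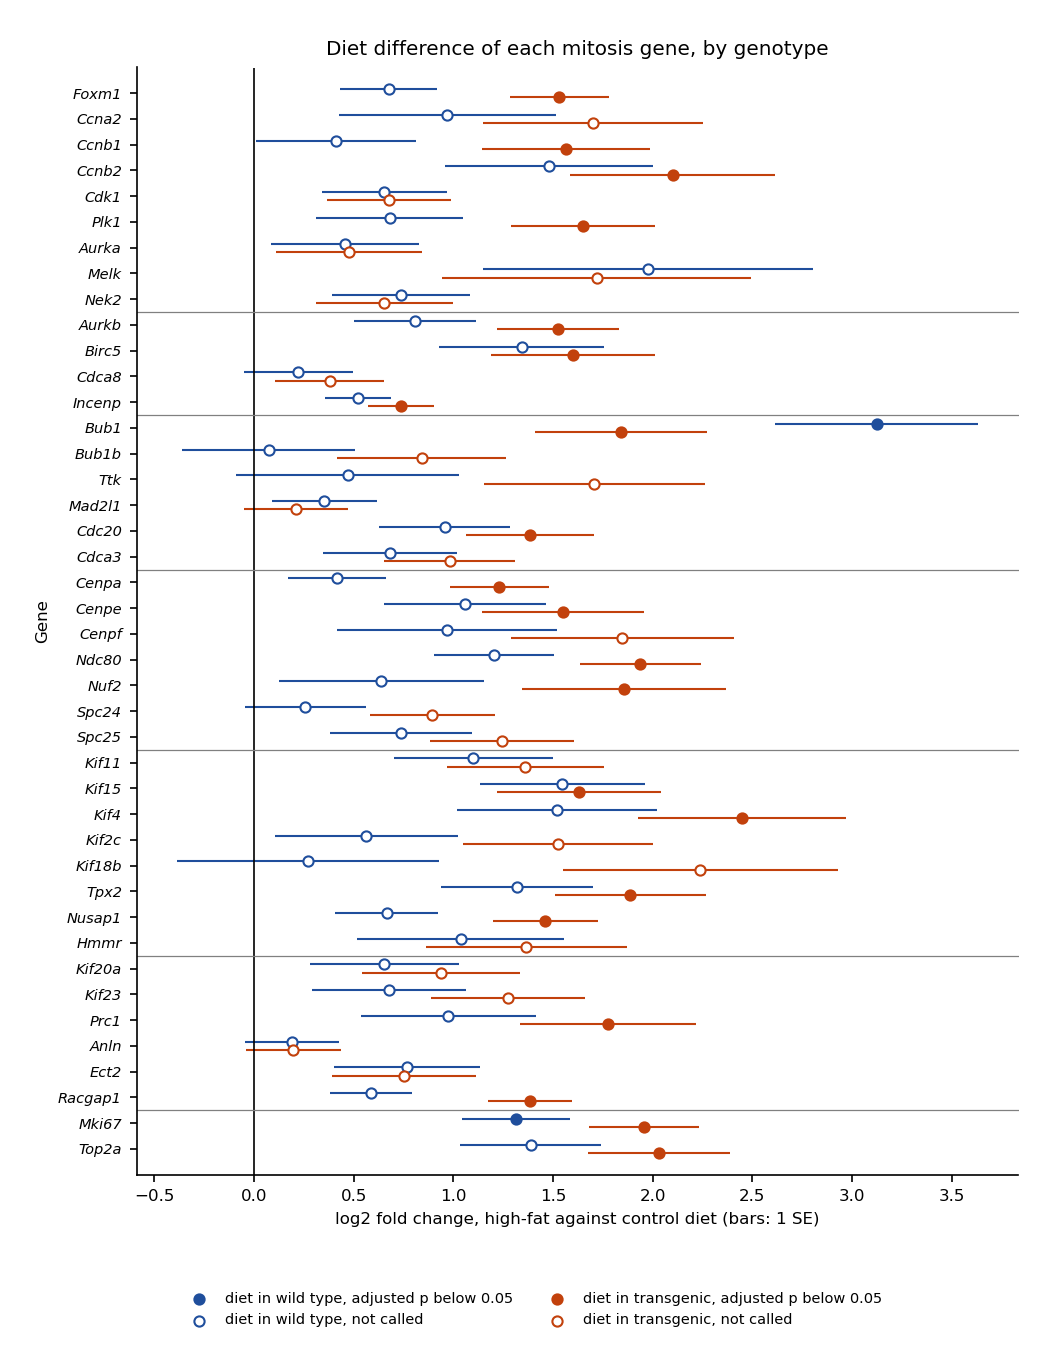
Log2 fold change of each mitosis gene, high-fat against control diet, in wild type (blue) and transgenic tissue (orange), with bars of 1 SE. Filled points have an adjusted p below 0.05 (2 genes in wild type, 21 in transgenic tissue), and all points lie to the right of 0.

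The transgene comparisons ask whether the genotypes differed on a given diet, and edgeR, DESeq2 and limma-voom called none of the 42 genes. On control diet 0.0363% of all genes were called in either direction. Here 20 of the 42 differences were positive and 22 negative, with a median of -0.07 and 1 unadjusted p below 0.05 in each direction, where 11% of all genes had one. Bub1 was higher in all 3 transgenic control libraries than in all 3 wild-type ones (1.62, SE 0.56, adjusted p = 0.319, 95% interval from 0.33 to 2.92), the 1 gene of the 42 with that separation (background 6.72%). Racgap1, Spc24 and Kif20a were separated the other way (background 6.38%), with differences of -0.52, -0.50 and -0.60 (adjusted p = 0.387, 0.602 and 0.619). For Mki67 the interval ran from -0.74 to 0.54, around a difference of -0.10.

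On high-fat diet 40 of the 42 differences between genotypes were positive (50.3% of all genes), with a median of 0.52 and 0% of all genes called. The 42 genes are measured in the same libraries, so their signs are not independent. Their summed level was 197 and 210 CPM in transgenic high-fat replicates 1 and 2, above the 136 to 144.5 CPM of the wild-type high-fat libraries. In transgenic high-fat replicate 3 it was 128 CPM, below every wild-type high-fat library. Unadjusted p values were below 0.05 for 4 of the 42, where 6.73% of all genes had one, namely for Plk1, Foxm1, Cdc20 and Cenpa, with differences of 1.11, 0.70, 0.74 and 0.58 (adjusted p = 0.712, 0.714, 0.714 and 0.714). Transgenic libraries lay wholly above wild-type libraries for 4 genes, Foxm1, Plk1, Cdca3 and Mki67, against 3.38% of all genes. They lay wholly below for none of the 42, against 13.2% of all genes. The test of the difference itself, in which the wild-type diet difference is taken from the transgenic one, called none of the 42 and 0% of all genes (DESeq2 and limma-voom called none of the 42 either). It was positive for 37 of the 42 (51.3% of all genes), with a median of 0.61, again over genes that share the same libraries. An unadjusted p below 0.05 was found for 3 of the 42, a share near the 5.61% of all genes. These were Racgap1 (0.80, 95% interval from 0.12 to 1.48), Foxm1 (0.86, from 0.06 to 1.65) and Cenpa (0.81, from 0.01 to 1.62), and the smallest adjusted p was 0.813. So 21 calls in one genotype and 2 in the other were not shown to be a difference between the genotypes.

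Other cell cycle genes were read from lists of related function. Of all genes, 9.43% were raised over both genotypes, 5.39% in transgenic tissue and 0.683% in wild type. Of 51 further mitosis genes 47 passed the filter, and 28 were raised over both genotypes, 15 in transgenic tissue and 3 in wild type, with none lowered. They were led by the condensin subunits Ncaph (1.14, SE 0.16) and Smc2 (0.63, SE 0.09), Arhgap11a (0.82, SE 0.14) and the spindle protein Dlgap5 (1.71, SE 0.29). Of 36 DNA replication genes 21 were raised over both genotypes, 16 in transgenic tissue and 4 in wild type. The replication factor Mcm10 (2.31, SE 0.27), the PCNA partner Pclaf (2.05, SE 0.24), Uhrf1 (1.41, SE 0.17), which maintains DNA methylation, and the helicase subunit Mcm6 (1.46, SE 0.20) led them. Their median was 0.49, beside 1.13 for the 42 genes.

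Over both genotypes 9.43% of all genes were raised and 7.98% lowered. The 15 core APC/C genes had 0 raised and 1 lowered (Cdc26, -0.21, SE 0.06) over both genotypes, and a median of -0.10. Summed, they stood at 726 to 869 CPM in the 12 libraries. None of 7 inhibitors of cyclin-dependent kinases passed, including Cdkn1a (p21; -0.50, SE 0.20, adjusted p = 0.104). Of 6 G1 cyclins and kinases, Ccnd1 (0.91, SE 0.13) and Ccnd2 (0.34, SE 0.09) rose over both genotypes. Of 14 genes of DREAM, MuvB and the Rb family, 5 rose, namely the repressors E2f7 (1.10, SE 0.16) and E2f8 (1.67, SE 0.30), the MuvB subunit Lin9 (0.52, SE 0.11), Rbl1 (0.37, SE 0.10) and Rb1 (0.27, SE 0.09). Mybl2, which encodes B-Myb, did not pass (0.76, SE 0.27, adjusted p = 0.0756).

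Markers of several cell types differed between the diets as well, and their part in the mitosis result was not tested. The background over both genotypes is 9.43% of all genes raised and 7.98% lowered. Of 8 dendritic cell markers 6 were raised over both genotypes, and their sum was 230 to 409 CPM in the 6 control libraries and 640 to 950 CPM in the 6 high-fat libraries. Cd74 and H2-Ab1 of class II antigen presentation made up most of it, and Flt3, which marks dendritic cells and their precursors, stood at 0.296 to 0.771 CPM on control and 1.22 to 1.96 CPM on high-fat diet. Zbtb46 and Cd209a, the markers of this list that were not raised, had differences of 0.09 and 0.16. Of 10 macrophage markers 3 were raised (Cd68, Mpeg1 and Fcgr1), with sums of 833 to 1165 CPM on control and 949 to 1357 CPM on high-fat diet. The rest of that list was not called. Adgre1, Mrc1, Lyz2 and Csf1r had differences of 0.47, 0.29, 0.18 and 0.18, and C1qb, C1qc and C1qa of -0.01, -0.11 and -0.12. Of 7 markers of lipid-associated macrophages, Itgax (2.32) and Lgals3 (1.30) were raised and Trem2 (-1.02) was lowered, with sums of 193 to 289 CPM on control and 290 to 686 CPM on high-fat diet. Of 10 T and NK cell markers 4 were raised, at sums of only 3.93 to 8.80 CPM on control and 5.42 to 15.9 CPM on high-fat diet, and Trac was at 0 in every library. Of 6 B cell markers 5 were tested and none was called, at sums of 3.51 to 16.8 CPM.

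Of 6 mesothelial markers 4 were lowered, with sums of 482 to 842 CPM on control and 108 to 437 CPM on high-fat diet. Of 7 erythroid markers, 6 of them tested, 4 were lowered (589 to 1199 CPM against 330 to 735 CPM). Of 8 epithelial markers 5 were lowered, at 21.7 to 378 CPM on control and 12.3 to 31.4 CPM on high-fat diet. Of 8 liver markers, 6 of them tested, 4 were raised, at 25.7 to 59.7 CPM on control and 40.9 to 343 CPM on high-fat diet. The 343 CPM was wild-type high-fat replicate 2, and the other high-fat libraries held 40.9 to 52.2 CPM, within the control range. Of the raised genes, Apoa1, Apoa2 and Gc were highest in that library, at 24.9, 10.2 and 14.5 CPM. Serpina1a, the other, stood at 0.346 to 2.19 CPM on control and 3.58 to 6.80 CPM on high-fat diet. Of 9 adipocyte markers Lep and Lpl were raised and Cfd lowered, and 1 of 6 markers of pericytes and smooth muscle was raised (Pdgfrb). Of 6 Schwann cell markers, 5 of them tested, 1 was lowered (Mbp). None of 10 muscle markers was called, and 7 of these were tested. Adipose progenitor markers had 1 raised and 2 lowered of 9, at 3506 to 5632 CPM over all libraries, and endothelial markers 1 raised of 6, at 591 to 906 CPM. A single call in a list this short is near the shares of all genes (9.43% raised, 7.98% lowered) and is not read as a difference of the cell type. Transgenic high-fat replicate 3, the lowest of its group for the mitosis genes, was the lowest of all libraries for mesothelial markers (108 CPM) and the highest for dendritic cell markers (950 CPM). Of the 5 libraries with transcripts of other tissues, wild-type control replicate 1, wild-type high-fat replicate 2 and transgenic control replicate 3 had the lowest mitosis sum of their group, wild-type high-fat replicate 3 the middle one and transgenic control replicate 2 the highest.

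**Figure D5:**
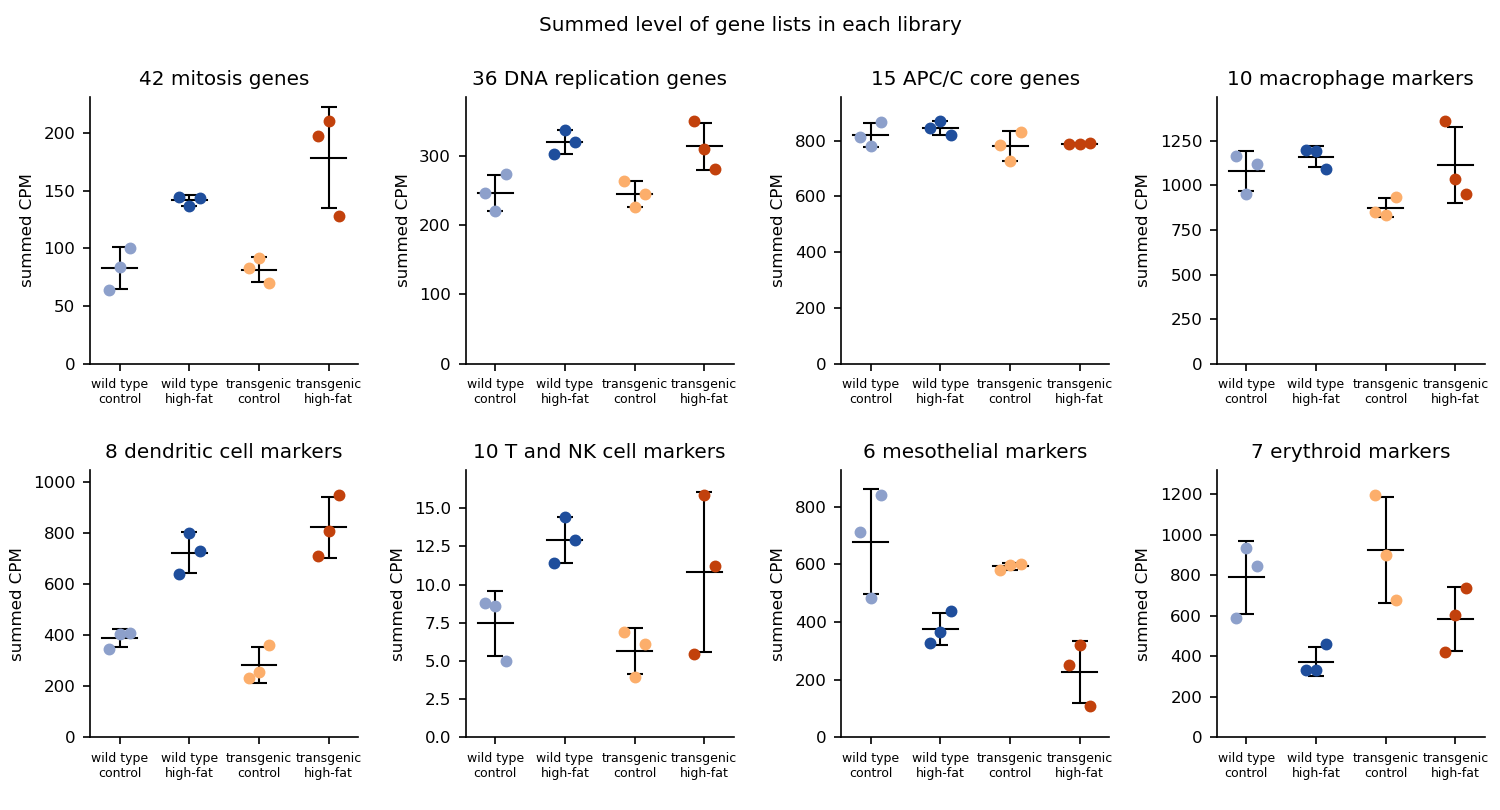
Summed CPM of gene lists in each library (points), with the group mean (line) and SD (bars, n = 3). The mitosis, DNA replication and dendritic cell sums were higher on high-fat diet in both genotypes, the mesothelial sum was lower, and the sum of the 15 APC/C core genes stayed between 726 and 869 CPM.

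The number of calls rested on single libraries more than the direction did. Over all alternatives, gene by gene, the diet difference was negative in 17 of 965 values in wild type, 4 of 966 in transgenic tissue and 0 of 924 over both genotypes. Leaving out wild-type control replicate 1 or 2, or any wild-type high-fat library, ended both wild-type calls, and the transgenic count of 21 fell to 9 without control replicate 1, 13 without control replicate 3, 11 without high-fat replicate 1 and 11 without high-fat replicate 2. Foxm1, Cenpa, Ndc80, Kif4, Nusap1, Racgap1, Mki67 and Top2a were called in transgenic tissue whichever library was left out. Over both genotypes, 20 genes (without transgenic control replicate 1) to 31 genes passed without 1 library, and 20 genes were called in all 12 such fits. Without all 5 libraries rich in transcripts of other tissues, which leaves 1 library in 2 of the groups that is assumed to vary like those of the other groups, 1 gene (Mki67) was called over both genotypes and none within a genotype, while the medians were 0.66 in wild type, 1.61 in transgenic tissue and 1.04 over both. The authors' deposited tables, which rest on the 6 libraries of each comparison, call 5 of the 42 raised in wild type (3.06% of all genes) and 27 in transgenic tissue (5.93%), with none lowered.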

How the data were processed

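RNA-seq of visceral white adipose tissue gave 12 libraries in 4 groups of 3, assigned by sample title, and the 42 mitosis genes and all gene lists used here were chosen with earlier results of these data known. The authors deposited whole-number read counts per gene for each library, not normalized, and 4 tables of their own comparisons with a log2 fold change, a score (Wald statistic), a mean count and a p-value per gene. The submitters' processing notes name build mm10 with HISAT2 (2.2.0), HTSeq (2.0) and DESeq2 (1.32.0). The annotation or strand setting of the counting is not given in the sources used here. Overlapping genes on opposite strands therefore cannot be told apart. The 5 summary rows of unassigned reads (16.8% to 21.0% of a library) stayed out of library sizes and tests.

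Counts were tested in R 4.3.3 with edgeR 4.0.16, with TMM factors and filterByExpr (minimum count 10, minimum total 15). A group-means model of 12 libraries left 8 residual degrees of freedom. The quasi-likelihood test also drew on the spread of the other genes. The pooled diet effect is the mean of that in each genotype. P-values were adjusted by Benjamini-Hochberg over 16550 genes, with calls made below 0.05. The SE is the log2 difference divided by the square root of F, and 95% intervals use it with 8 degrees of freedom. An interval can therefore span no difference beside an unadjusted p below 0.05. CPM values are relative to library totals, without TMM factors. The fitting script was tested on simulated data. Counting intervals cover counting error only. Described with values in every library were the 2 genes of each role with the smallest p over both genotypes and a panel of 10 (Mki67, Top2a, Foxm1, Cdk1, Ccnb1, Plk1, Aurkb, Birc5, Bub1 and Cenpa), and up to 4 genes of each other list by smallest p. Mybl2, Cdkn1a, Anln and the markers named were singled out after their values were seen. Alternatives were other scaling factors, no filter, DESeq2 1.42.0, limma 3.58.1 with voom, fewer libraries and a replicate block. Deviations from the group means correlated at -0.11 to 0.27 between libraries with the same replicate number (over 0.1 in 4 of 18 pairs). Between libraries with different numbers they correlated at -0.26 to 0.19 (over 0.1 in 4 of 36 pairs). Groups of 3 libraries are too small for this to settle whether the numbers mark a pairing, and the main test fitted none.

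Exon overlaps come from GENCODE vM21 and promoters from RefSeq, both on GRCm38.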

Additional observations from a re-analysis of the deposited data

How the results depend on the processing

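In wild type 2 of the 42 genes were called, 5 with DESeq2, 4 with no filter beyond 1 count, 2 with the replicate block, and 0 to 2 without 1 library each. In transgenic tissue 21 were called, 29 with DESeq2, 28 with no filter, 14 from the 6 compared libraries alone, 21 with the replicate block, and 9 to 24 without 1 library each. Over both genotypes 30 were called, 27 with the replicate block, and 20 to 31 without 1 library each. The replicate numbers were not shown to pair the libraries, so the block is given as an alternative only. Alternatives added after seeing the data left out libraries rich in transcripts of other tissues. Without both epithelium-rich libraries the counts were 0, 19 and 29 in wild type, transgenic tissue and over both, without both muscle-rich libraries 0, 11 and 22, without the liver-rich and the Schwann-rich library 0, 18 and 19, and without all 5 of them 0, 0 and 1. These fits hold fewer libraries. Both transgene comparisons and the interaction called 0 of the 42 under each of these settings. The median log2 difference stayed between 0.65 and 0.96 in wild type, 1.33 and 1.73 in transgenic tissue and 1.01 and 1.24 over both, while that of the transgene ran from -0.42 to 0.15 on control diet and from 0.33 to 0.71 on high-fat diet, and that of the interaction from 0.35 to 1.05. Of 680 values of named genes under these settings 558 kept their call, 116 lost it, 6 gained one and 0 changed sign. Low counts limit several genes, among them Bub1, Melk, Kif4, Kif18b and Ndc80, with 7 to 37 counts per control group.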
